A study of Homo sapiens with 14 samples.

Results

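Expression of 10 genes of the transforming growth factor beta (TGF-beta) system was followed across an RNA sequencing experiment on human neural crest induction. They are the ligands TGFB1, TGFB2 and TGFB3, the related ligand GDF10, the type I receptors TGFBR1 and ACVR1B, the type II receptors TGFBR2, ACVR2A and ACVR2B, and the co-receptor TGFBR3. The members were taken by symbol, and 10 of the 26485 genes in the count table are members. All 10 passed the filter on low counts, among 16149 genes tested.

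The study induced neural crest from WA01, a human embryonic stem cell line also known as H1, and asked, going by its title, how TGF-beta signaling through SMAD2 and SMAD3 bears on the developmental plasticity of these cells. The 6 induced groups were harvested at day 5 on Matrigel and all had received CHIR99021, which inhibits GSK3 and so turns on canonical Wnt signaling, from hour 0 to hour 72. The groups called low Wnt had 3 µM and those called high Wnt 10 µM. At each dose the cultures had no additive, 10 µM SB431542 (SB4), or recombinant human TGF-beta 1 protein (TGFB) at a labelled 5 ng/µL, and either additive was present to hour 120. The remaining group, hESC, was the uninduced stem cells. Each of the 7 groups had 2 libraries, all from the same cell line, and no label states whether they were separate cultures. The spread behind the p-values may thus be technical, since it is that between library pairs.

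TGF-beta ligands are secreted in a latent form, held in the matrix until released, and bind TGFBR2, a kinase that then recruits and activates the type I receptor TGFBR1. Activins and nodal use ACVR2A or ACVR2B with the type I receptor ACVR1B. Both routes phosphorylate SMAD2 and SMAD3, which enter the nucleus with SMAD4, and SB431542 blocks the kinases of TGFBR1 and ACVR1B and of their relative ACVR1C. In neural crest the pathway is known for steering cells toward smooth muscle and connective tissue fates.

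Library totals ran from 10879287 to 19106827 counts, and the correlation of log2 values across genes between the 2 libraries of a group ran from 0.988 to 0.992. Levels are counts-per-million (CPM), given for the 2 libraries of a group in the order of their replicate numbers or as mean ± SD (n = 2), and differences are log2 fold changes with standard error (SE). A gene was called where edgeR's quasi-likelihood test gave a Benjamini-Hochberg adjusted p under 0.05 over all genes tested. Stem cell markers summed to 5829 to 5927 CPM in hESC and to 617 to 3382 CPM in the induced libraries. In high Wnt without additive nearly all of that sum was LIN28A, DNMT3B and DPPA4, at group means of 624, 150.5 and 131.9 CPM. POU5F1, NANOG and TDGF1 were at 0.115, 0 and 0.264 CPM there, beside 183.5, 81.03 and 1005 CPM in hESC. POU5F1 and TDGF1 were at 3.14 and 13.63 CPM in low Wnt, and at 44.02 and 230.2 CPM in low Wnt + TGFB. The 10 neural crest markers summed to 139 to 148 CPM in hESC, 163 to 182 CPM in the low Wnt groups and 307 to 416 CPM in the high Wnt groups. The crest regulator SOX10 stayed at group means of 0.602 to 6.67 CPM. TFAP2A was at most 0.144 CPM in the high Wnt groups, and TFAP2B had no counts in high Wnt without additive. Of the 10 markers 4 were higher and 4 lower in high Wnt than in low Wnt, where 19.4% of all genes tested were higher and 19.1% lower. The crest and dorsal neural tube regulator PAX3 made up most of the high Wnt sums. Its group means were 169.8 to 259.9 CPM there, beside 7.54 CPM in low Wnt. ETS1 had 55.0 CPM without additive at the high dose, beside 14.7 CPM in low Wnt, but only 5.49 CPM in high Wnt + SB4. NGFR, the largest of the 10 in low Wnt, went the other way, with 95.2 CPM there beside 18.4 CPM in high Wnt. ETS1 and FOXD3 were highest in hESC, at 77.5 and 33.9 CPM, and made up most of the sum there. Whether these sums reflect crest cells was not tested.

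The sequences just upstream of 4 members are shown because these genes moved most between groups. They are TGFB1 and TGFB2, which were both higher in high Wnt than in low Wnt, GDF10, which rose with SB4 in high Wnt, and TGFBR3, which fell with TGFB in low Wnt. Each is the 250 bases before the RefSeq start site (GRCh38.p14) in the direction of the gene, and capitals mark matches to the motifs searched. The windows lie at chr19:41353923-41354172 on the minus strand for TGFB1, chr1:218345086-218345335 on the plus strand for TGFB2, chr10:47299947-47300196 on the plus strand for GDF10 and chr1:91886152-91886401 on the minus strand for TGFBR3.
TGFB1: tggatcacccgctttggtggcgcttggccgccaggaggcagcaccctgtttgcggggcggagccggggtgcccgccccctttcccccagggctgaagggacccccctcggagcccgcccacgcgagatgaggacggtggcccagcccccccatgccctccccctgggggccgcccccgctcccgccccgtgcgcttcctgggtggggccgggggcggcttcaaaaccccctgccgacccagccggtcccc
TGFB2: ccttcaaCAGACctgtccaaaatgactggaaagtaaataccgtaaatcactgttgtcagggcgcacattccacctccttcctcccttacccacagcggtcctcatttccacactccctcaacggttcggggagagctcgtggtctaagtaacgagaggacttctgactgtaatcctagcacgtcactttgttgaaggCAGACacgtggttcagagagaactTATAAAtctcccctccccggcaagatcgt
GDF10: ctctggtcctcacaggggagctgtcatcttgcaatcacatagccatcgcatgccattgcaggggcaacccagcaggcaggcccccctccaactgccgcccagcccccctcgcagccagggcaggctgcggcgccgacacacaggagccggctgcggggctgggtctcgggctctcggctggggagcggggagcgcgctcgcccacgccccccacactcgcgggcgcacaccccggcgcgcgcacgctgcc
TGFBR3: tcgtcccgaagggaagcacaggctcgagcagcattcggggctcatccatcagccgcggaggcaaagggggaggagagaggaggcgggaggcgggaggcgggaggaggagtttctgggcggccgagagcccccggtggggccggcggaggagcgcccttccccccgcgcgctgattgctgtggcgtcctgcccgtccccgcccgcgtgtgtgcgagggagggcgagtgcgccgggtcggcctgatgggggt

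All 10 members had a RefSeq promoter, and where several starts were listed the nearest to the gene's start in the count table was used. The distance was 2 to 99 bases for 7 members, 409 for ACVR2B, 512 for ACVR2A and 19851 for TGFBR3, whose window therefore belongs to a start far inside the gene as the table lists it. Altogether 5 motifs were searched on both strands. The TGFB2 window held the core SMAD site CAGAC at positions 243 and 53 before the start, and the TGFBR1 window held it at positions 240 and 183, so 2 of the 10 members had it, against 38.0% of all 35116 promoter windows of this length. The TATA box TATAAA stood 29 bases before the TGFB2 start and 30 before the TGFB3 start, also 2 of 10 members, against 10.7% of all windows. None of the members' windows held the TCF/LEF motif CTTTGAT (2.26% of all windows), the SMAD palindrome GTCTAGAC (0.182%) or the CAGA box AGCCAGACA (0.231%), which itself contains CAGAC. The windows of TGFB1, GDF10 and TGFBR3 held no match to any of the 5. A match describes letters, and no match says only that these letters are not in this window.

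Against the stem cells TGFB1 and TGFBR2 fell in low Wnt, and in high Wnt TGFB1 rose while TGFBR2 was not called, whereas TGFB2, GDF10, TGFBR1, ACVR1B, ACVR2B and TGFBR3 rose at both doses. In low Wnt against hESC 8 members rose and 2 fell, in a comparison where 71.4% of all genes tested were called (35.8% higher, 35.6% lower). In high Wnt against hESC 7 rose, none fell and 3 were not called, where 72.4% of all genes were called (36.3% higher, 36.1% lower). The count called in either direction was thus close to the share over all genes there, while its split by direction was not. The median log2 fold change over the members was 1.23 in low Wnt and 1.08 in high Wnt, beside 0.00403 and 0.00926 over all genes tested. High Wnt against low Wnt had 4 members higher (TGFB1, TGFB2, GDF10, TGFBR2), 4 lower (TGFBR1, ACVR2A, ACVR2B, TGFBR3) and 2 not called, where 38.5% of all genes were called (19.4% higher, 19.1% lower). The median over the members there was -0.19, beside -0.00688 over all genes. The first 2 comparisons share the hESC libraries, and the comparison between doses shares its libraries with both. In these bulk samples fewer cells that express a gene and less RNA of it per cell cannot be told apart.

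**Figure D1:**
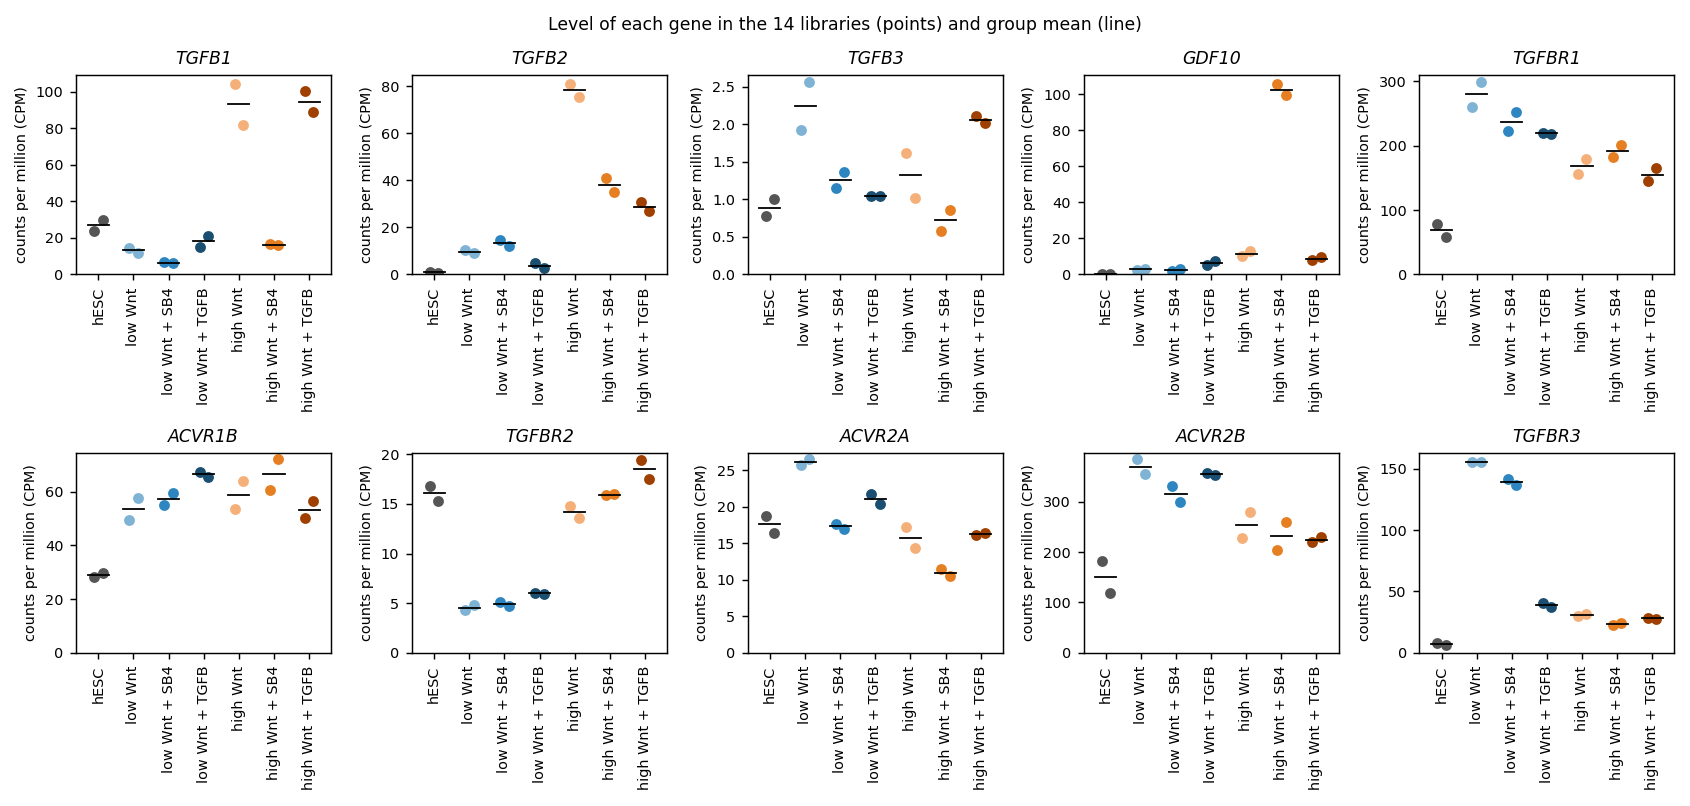
Level of each member in counts-per-million (vertical axis, linear from 0, a scale of its own in each panel) in the 7 groups (horizontal axis), with a point for each library and a line at the group mean. TGFB1 and TGFB2 are highest in high Wnt groups, GDF10 in high Wnt + SB4 at 102.8 CPM, and TGFBR3 in low Wnt at 155.4 CPM.

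**Figure D2:**
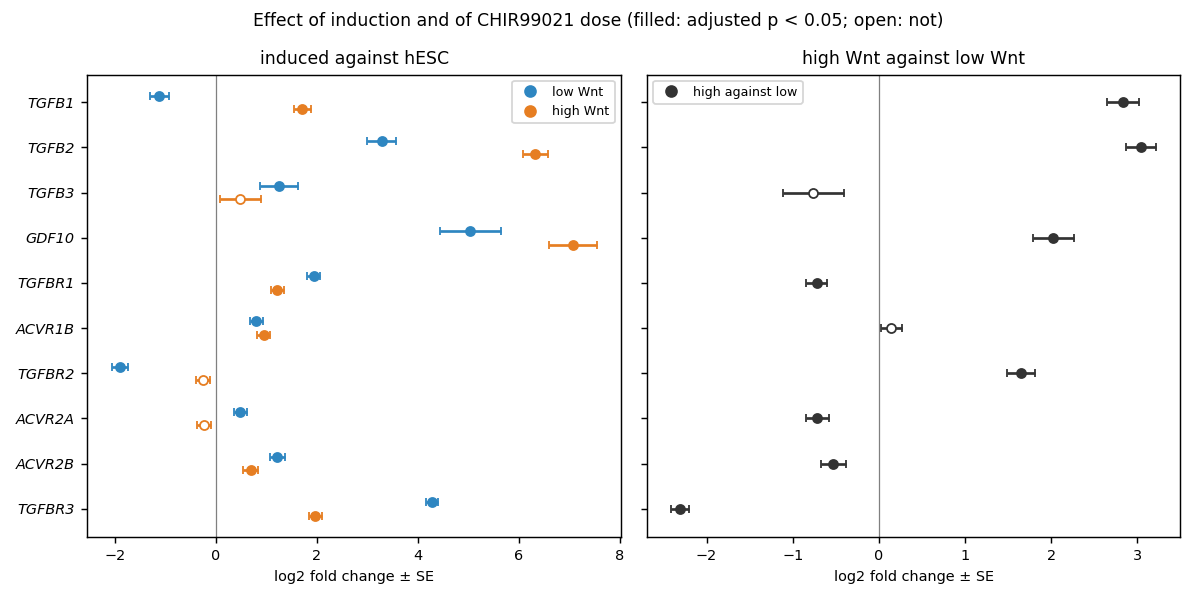
Log2 fold change ± SE of each member (horizontal axis) for low Wnt and high Wnt against hESC (left) and for high Wnt against low Wnt (right), with filled points for adjusted p under 0.05 and open points otherwise. TGFB1 lies at -1.12 in low Wnt and at 1.71 in high Wnt, on opposite sides of 0.

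TGFB1, the founding ligand of the family, lies at chr19:41330531-41353933 on the minus strand with 2583 exon bases. Its libraries had 24.1 and 30.0 CPM in hESC, 14.6 and 11.9 in low Wnt, and 104.6 and 82.1 in high Wnt. The 3 groups did not overlap, with low Wnt below the stem cells and high Wnt above them. TGFB1 fell by 1.12 on the log2 scale (SE 0.185, adjusted p 4.47e-05) in low Wnt against hESC and rose by 1.71 (SE 0.173, adjusted p 1.52e-07) in high Wnt against hESC. The difference between doses was 2.83 (SE 0.183, adjusted p 1.77e-09).

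With the receptor inhibitor, TGFB1 messenger fell at both doses and by more at the higher dose. Its libraries had 6.92 and 6.18 CPM in low Wnt + SB4 and 16.65 and 15.95 CPM in high Wnt + SB4, each below every library of the same dose without additive. The log2 fold change was -2.58 (SE 0.180, adjusted p 5.22e-08) in high Wnt and -1.03 (SE 0.205, adjusted p 0.00335) in low Wnt. Without low Wnt + SB4 replicate 2 the low Wnt value was -0.94 and was no longer called (adjusted p 0.0565). The 2 SB4 effects differed by -1.55 (SE 0.271, adjusted p 0.00180). Added TGF-beta 1 protein, which carries no messenger of its own, went with 14.9 and 21.3 CPM in low Wnt and 100.5 and 89.0 CPM in high Wnt. Neither passed the test, at 0.38 (adjusted p 0.157) and -0.04 (adjusted p 0.930), and in low Wnt the value was 0.63 and called (adjusted p 0.0347) without low Wnt + TGFB replicate 1. In order, TGFB1 was highest in high Wnt + TGFB and high Wnt, whose libraries overlapped, then hESC, then low Wnt + TGFB and high Wnt + SB4, which overlapped, then low Wnt, and lowest in low Wnt + SB4.

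TGFB2, the ligand that needs the co-receptor TGFBR3 for strong binding to TGFBR2, lies at chr1:218345334-218444619 on the plus strand with 5954 exon bases. It was almost silent in the stem cells, at 15 and 10 counts or 1.06 and 0.773 CPM. Low Wnt libraries had 10.2 and 8.95 CPM and high Wnt libraries 81.0 and 75.4 CPM, so the groups rose in the order hESC, low Wnt, high Wnt with no overlap. The rise over hESC was 3.28 (SE 0.281, adjusted p 2.36e-08) in low Wnt and 6.32 (SE 0.247, adjusted p 1.35e-12) in high Wnt. The difference between doses was 3.04 (SE 0.176, adjusted p 4.66e-10).

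In high Wnt both additives lowered TGFB2. SB4 libraries had 41.2 and 35.2 CPM and TGFB libraries 30.7 and 26.97 CPM, all below the high Wnt libraries without additive. TGFB2 fell by 1.09 with SB4 (SE 0.158, adjusted p 0.000122) and by 1.51 with TGFB (SE 0.162, adjusted p 2.31e-05), in comparisons that share the high Wnt libraries. In low Wnt the additives parted: TGFB libraries had 4.76 and 2.85 CPM, a change of -1.44 (SE 0.214, adjusted p 8.86e-05), while SB4 libraries had 14.6 and 11.9 CPM, above the 10.2 and 8.95 CPM without additive. The SB4 change in low Wnt was 0.46 (SE 0.181) and missed the test (adjusted p 0.124). The 2 SB4 effects differed by -1.55 (SE 0.240, adjusted p 0.000669), and the 2 TGFB effects by -0.07 (SE 0.278, adjusted p 0.920). No libraries of neighbouring groups overlapped in the order high Wnt, high Wnt + SB4, high Wnt + TGFB, low Wnt + SB4, low Wnt, low Wnt + TGFB, hESC. Of the TGFB2 exon bases 1370 are shared on the same strand with TGFB2-OT1, where reads were not counted for either gene, which lowers the level of TGFB2 per base in every library.

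TGFB3, the ligand best known for palate fusion, lies at chr14:75958097-75982022 on the minus strand with 3458 exon bases, and its level was low throughout. The 14 libraries held between 9 and 43 counts, and group means ran from 0.721 CPM in high Wnt + SB4 to 2.24 CPM in low Wnt. Low Wnt, at 1.92 and 2.57 CPM, lay above hESC at 0.776 and 1.01 CPM, a rise of 1.24 (SE 0.377, adjusted p 0.00747). TGFB in low Wnt went with 1.04 and 1.05 CPM, a fall of 1.18 (SE 0.362, adjusted p 0.0241). In high Wnt the TGFB libraries had 2.11 and 2.01 CPM beside 1.61 and 1.03 without additive, a change of 0.59 that was not called (adjusted p 0.403). The TGFB effects differed between doses by 1.77 (SE 0.516, adjusted p 0.0339). With DESeq2 these 3 calls were lost, at adjusted p 0.0508, 0.114 and 0.136, and leaving out low Wnt replicate 2 also ended all 3, at 0.0630, 0.165 and 0.131.

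GDF10, a secreted relative also named BMP3B, lies at chr10:47300224-47313574 on the plus strand with 2647 exon bases. It was the member with the widest range. The stem cells had 0 and 2 counts, low Wnt 45 and 50 counts (2.70 and 2.98 CPM), and high Wnt 124 and 189 counts (10.0 and 12.9 CPM). With 2 counts in hESC the ratio of summed CPM was 38.5 for low Wnt (exact 95% interval 10.4 to 322.7) and 157 for high Wnt (43.1 to 1302), intervals that cover counting error only. Both counts came from hESC replicate 2: against it alone the ratios were 18.38 (95% interval 4.95 to 154) and 74.86 (20.55 to 620.9), and against replicate 1, with no counts, GDF10 was at least 13.43-fold and 54.71-fold higher, taking 3 counts for that library. The difference between doses was 2.03 (SE 0.239, adjusted p 3.19e-06).

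GDF10 alone among the members rose with SB4 in high Wnt. Its libraries there had 105.8 and 99.7 CPM, far above every other library, and the rise over high Wnt was 3.10 (SE 0.196, adjusted p 1.75e-08). In low Wnt + SB4 the libraries had 1.82 and 3.09 CPM, on either side of those without additive, and the change of -0.20 was not called (adjusted p 0.717). The SB4 effects differed between doses by 3.30 (SE 0.342, adjusted p 1.24e-05). TGFB in low Wnt went with 5.43 and 7.48 CPM, above both libraries without additive, a rise of 1.11 (SE 0.251, adjusted p 0.00352) that fell to 0.87 and was not called without low Wnt + TGFB replicate 2 (adjusted p 0.0645). In high Wnt + TGFB the libraries had 7.997 and 9.558 CPM and the change of -0.44 was not called (adjusted p 0.255). The TGFB effects differed between doses by -1.55 (SE 0.329, adjusted p 0.00471).

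TGFBR1, the kinase that TGFBR2 activates, lies at chr9:99105089-99154191 on the plus strand with 6527 exon bases. It had 79.2 and 58.4 CPM in hESC, 260.8 and 298.8 in low Wnt, and 155.9 and 180.3 in high Wnt, and the 3 groups did not overlap. The rise over hESC was 1.94 (SE 0.127, adjusted p 9.73e-10) in low Wnt and 1.22 (SE 0.126, adjusted p 2.06e-07) in high Wnt, and high Wnt against low Wnt was -0.72 (SE 0.122, adjusted p 0.000156). TGFB in low Wnt went with 220.0 and 218.9 CPM, a change of -0.43 (SE 0.121, adjusted p 0.0139). That call was lost when library totals alone set the scale (adjusted p 0.0598), and without low Wnt replicate 2 or either low Wnt + TGFB library (adjusted p 0.0674 to 0.129). SB4 libraries had 222.9 and 252.3 CPM in low Wnt and 182.3 and 201.1 CPM in high Wnt, changes of -0.24 (adjusted p 0.228) and 0.13 (adjusted p 0.483), neither of them called.

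ACVR1B, the type I receptor for activin and nodal, lies at chr12:51951667-51997079 on the plus strand with 4807 exon bases. The hESC libraries had 28.1 and 29.6 CPM and every induced library had more, from 49.4 to 72.2 CPM. The rise was 0.80 (SE 0.125, adjusted p 2.37e-05) in low Wnt and 0.95 (SE 0.125, adjusted p 3.59e-06) in high Wnt. ACVR1B did not pass the test between doses (0.15, adjusted p 0.368) or with either additive at either dose, where changes ran from -0.20 to 0.23. Among the induced groups, high Wnt + SB4, at 60.7 and 72.2 CPM, overlapped low Wnt + TGFB at the top. It also overlapped high Wnt, at 53.5 and 63.8 CPM. The libraries of high Wnt, low Wnt + SB4, low Wnt and high Wnt + TGFB overlapped from neighbour to neighbour.

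TGFBR2, the type II receptor that binds the TGFB ligands, lies at chr3:30606502-30694141 on the plus strand with 4703 exon bases. It was the receptor gene that separated the doses most clearly upward. Libraries had 16.8 and 15.3 CPM in hESC, 4.32 and 4.77 in low Wnt, and 14.8 and 13.6 in high Wnt. TGFBR2 fell by 1.91 (SE 0.159, adjusted p 1.64e-08) in low Wnt against hESC, differed by -0.25 (SE 0.146, adjusted p 0.128) in high Wnt against hESC, and was 1.65 higher in high Wnt than in low Wnt (SE 0.159, adjusted p 2.80e-07). No additive gave a call. The TGFB libraries were nevertheless above those without additive at both doses, at 6.02 and 5.94 CPM in low Wnt (0.31, adjusted p 0.193) and 19.4 and 17.5 CPM in high Wnt (0.32, adjusted p 0.225). SB4 libraries had 5.10 and 4.76 CPM in low Wnt and 15.94 and 15.95 CPM in high Wnt, changes of 0.11 at each dose.

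ACVR2A, a type II receptor for activin, lies at chr2:147844517-147930827 on the plus strand with 5443 exon bases. It was the only receptor gene called with SB4 at both doses. Libraries had 25.7 and 26.6 CPM in low Wnt and 17.67 and 17.01 in low Wnt + SB4, a change of -0.60 (SE 0.130, adjusted p 0.00608). They had 17.2 and 14.4 CPM in high Wnt and 11.4 and 10.5 in high Wnt + SB4, a change of -0.58 (SE 0.140, adjusted p 0.00692). The first call was lost without low Wnt replicate 2 (adjusted p 0.0521) or low Wnt + SB4 replicate 2 (0.0718), and the second without high Wnt replicate 1 (0.102) or high Wnt + SB4 replicate 2 (0.0725). The stem cells had 18.8 and 16.5 CPM, below low Wnt (0.48, SE 0.132, adjusted p 0.00383), and high Wnt against low Wnt was -0.71 (SE 0.134, adjusted p 0.000404). TGFB went with 21.7 and 20.4 CPM in low Wnt, a change of -0.40 (SE 0.130, adjusted p 0.0327), and with 16.1 and 16.4 CPM in high Wnt, a change of -0.02 (adjusted p 0.971). The low Wnt call was lost with DESeq2 (adjusted p 0.0788), library totals alone (0.0852) or no filter (0.0673), and without any of 9 libraries (0.0541 to 0.232).

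ACVR2B, the other activin type II receptor, lies at chr3:38454299-38493142 on the plus strand with 11373 exon bases. The hESC libraries had 181.6 and 119.6 CPM, low Wnt 384.2 and 356.2 CPM, and high Wnt 228.6 and 280.0 CPM. ACVR2B rose by 1.21 (SE 0.149, adjusted p 1.67e-06) in low Wnt and by 0.68 (SE 0.148, adjusted p 0.000552) in high Wnt, and high Wnt against low Wnt was -0.53 (SE 0.146, adjusted p 0.00854). The difference between doses was not called without low Wnt replicate 1 (adjusted p 0.0610) or high Wnt replicate 1 (0.0947). No additive gave a call, with changes from -0.24 to -0.15. All 3 high Wnt groups overlapped from neighbour to neighbour, as did low Wnt and low Wnt + TGFB.

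TGFBR3, also called betaglycan, is a membrane proteoglycan without a kinase that presents TGF-beta 2 to TGFBR2 and binds inhibin. It lies at chr1:91680343-91906002 on the minus strand with 6802 exon bases. The stem cells had 8.33 and 6.65 CPM and low Wnt 155.2 and 155.6 CPM, a rise of 4.28 (SE 0.118, adjusted p 4.34e-14). High Wnt had 30.4 and 31.6 CPM, above hESC by 1.97 (SE 0.121, adjusted p 3.33e-10), and its log2 fold change against low Wnt was -2.31 (SE 0.102, adjusted p 1.58e-11). In the comparison of doses TGFBR3 thus ran against TGFB1, TGFB2 and GDF10, being higher in low Wnt than in high Wnt. Against hESC it rose at both doses, as TGFB2 and GDF10 did, while TGFB1 fell in low Wnt. In hESC TGFBR3, TGFB2 and GDF10 were all at their lowest.

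TGFB lowered TGFBR3 in low Wnt to 40.5 and 37.4 CPM, below every low Wnt library and close to high Wnt. The change was -2.08 (SE 0.0999, adjusted p 5.69e-10). In high Wnt + TGFB the libraries had 28.3 and 27.9 CPM, and the change of -0.20 was not called (adjusted p 0.293). The TGFB effects differed between doses by 1.88 (SE 0.144, adjusted p 2.82e-07). SB4 went with 142.0 and 136.8 CPM in low Wnt (-0.17, adjusted p 0.300) and with 22.8 and 23.9 CPM in high Wnt (-0.46, SE 0.105, adjusted p 0.00478). No libraries of neighbouring groups overlapped in the order of levels, which began with low Wnt, followed by its SB4 and then its TGFB group, and went on with high Wnt, its TGFB and then its SB4 group, and hESC.

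Counted over the system, each additive called fewer members in one dose than in the other. SB4 called 2 of 10 members in low Wnt, both lower, where 11.2% of all genes were called (4.84% higher, 6.39% lower), and 5 of 10 in high Wnt, 1 higher and 4 lower, where 21.5% were called (9.94% higher, 11.6% lower). TGFB called 6 of 10 in low Wnt, 1 higher and 5 lower, where 26.0% of all genes were called (13.7% higher, 12.2% lower), and 1 of 10 in high Wnt, lower, where 7.25% were called (3.75% higher, 3.49% lower). The larger member count thus went with the larger count over all genes for each additive. The member count for TGFB in low Wnt was 3 without low Wnt replicate 2 and 2 without low Wnt + TGFB replicate 2, and that for SB4 in low Wnt was 1 without low Wnt replicate 2 and 0 without low Wnt + SB4 replicate 2. Median log2 fold changes over the members were -0.22 and -0.33 for SB4 in low and high Wnt and -0.27 and -0.19 for TGFB, beside medians over all genes of 0 and 0.00302 for SB4 and -0.00549 and 0 for TGFB. Tested directly, the SB4 effect differed between doses for 3 members (GDF10 upward, TGFB1 and TGFB2 downward), where 6.07% of all genes did so (2.71% upward, 3.36% downward). The TGFB effect differed for 3 (TGFB3 and TGFBR3 upward, GDF10 downward), where 11.8% of all genes did so (5.73% upward, 6.06% downward). TGFBR1, ACVR1B, TGFBR2, ACVR2A and ACVR2B passed neither test of a difference between doses.

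**Figure D3:**
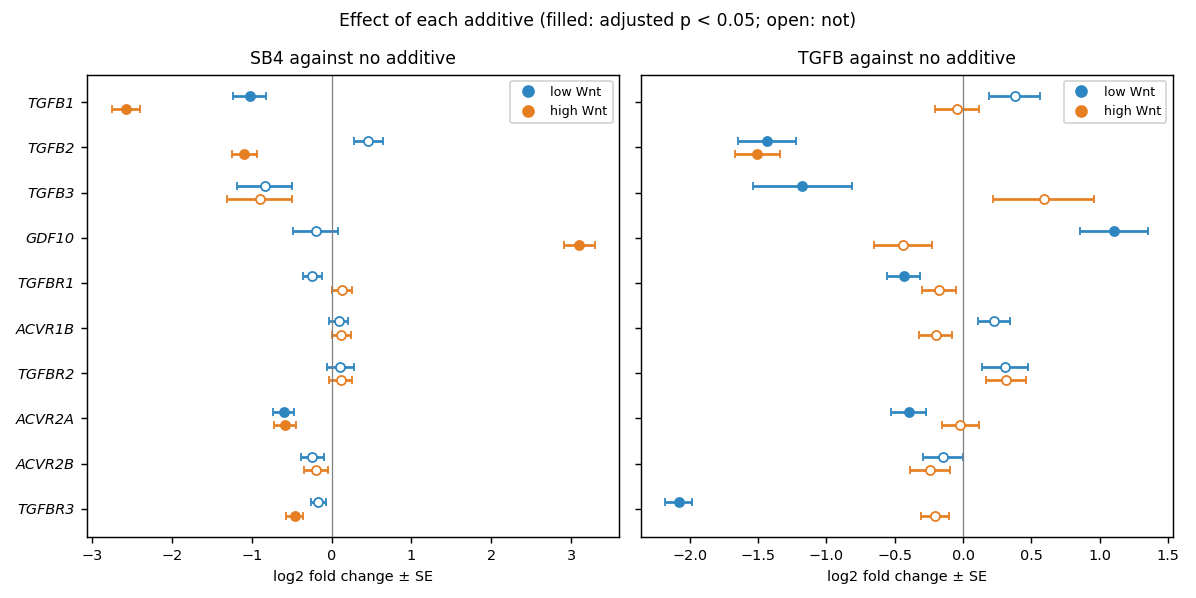
Log2 fold change ± SE of each member (horizontal axis) with SB4 (left) and with TGFB (right) against no additive, at low Wnt and high Wnt, with filled points for adjusted p under 0.05 and open points otherwise. In high Wnt + SB4 GDF10 lies at 3.10 and TGFB1 at -2.58, and in low Wnt + TGFB TGFBR3 lies at -2.08.

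Markers of other cell types moved with some of these results. Of all genes tested, 13.7% were higher and 12.2% lower with TGFB in low Wnt. These shares were 19.4% and 19.1% for high Wnt against low Wnt, and 9.94% and 11.6% with SB4 in high Wnt. In low Wnt + TGFB, where TGFBR3 fell, the 6 stem cell markers summed to 2991 to 3382 CPM beside 1548 to 1778 CPM without additive, with 6 of 6 higher. Of the 5 neural progenitor markers 4 were lower and 1 higher in that comparison, and their sum was 1512 to 1690 CPM beside 3050 to 3497 CPM. The higher one was OTX2, at a group mean of 177.3 CPM beside 18.4 CPM. The 4 endoderm markers were all higher, at 43.5 to 96.4 CPM beside 1.74 to 2.09 CPM. In high Wnt, where TGFB1, TGFB2 and GDF10 rose and TGFBR3 was lower, 5 of 6 mesoderm markers were tested and all 5 were above low Wnt, their sum being 202 to 233 CPM beside 6.32 to 8.77 CPM. That sum was 128 to 150 CPM in high Wnt + SB4 and 425 to 470 CPM in high Wnt + TGFB. Between the same doses 4 of 5 neural progenitor markers were lower in high Wnt and none higher (sum 1071 to 1234 CPM beside 3050 to 3497 CPM). SOX1, PAX6 and OTX2 were a small part of either sum, and the rest in low Wnt was nearly all NES. Group means of these 3 genes were 1.14, 6.22 and 0.385 CPM in high Wnt, beside 175, 51.6 and 18.4 CPM in low Wnt. Of the stem cell markers 6 of 6 were lower in high Wnt (854 to 960 CPM beside 1548 to 1778 CPM). In high Wnt + SB4, where GDF10 rose, 2 neural progenitor markers were higher and 1 lower, PAX6 having 80.7 CPM beside 6.22 CPM without additive, and the sum was 859 to 1048 CPM. The 5 endothelium and blood markers summed to at most 173 CPM, nearly all of it TEK, and PECAM1 did not exceed a group mean of 0.977 CPM. The part of these cell types in the members' changes was not tested.

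Per length of exon, the mixture of ligands shifted from almost pure TGFB1 to a mixture with TGFB2. Over the 3 TGFB ligands, TGFB1 made up 96.2% ± 0.460 of the summed CPM per kb in hESC (SD, n = 2), 69.3% ± 2.93 in low Wnt and 72.6% ± 2.26 in high Wnt. TGFB2 made up 1.45% ± 0.530, 21.8% ± 0.226 and 26.6% ± 2.40 in the same groups. With SB4, TGFB2 reached 43.3% ± 2.10 in low Wnt and 49.5% ± 2.24 in high Wnt, beside 49.5% ± 0.608 and 48.8% ± 1.69 for TGFB1. With TGFB, TGFB1 made up 87.7% ± 5.18 and 87.1% ± 0.00707, and TGFB2 made up 8.45% ± 4.47 and 11.5% ± 0.0636. The shares of TGFB1 and TGFB2 in SB4 libraries and in TGFB libraries thus lay on opposite sides of those without additive at both doses, with no overlap. These shares were not tested, and the share of each ligand depends on that of the others.

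The summed level of the 3 ligands was 10.9 ± 1.64 CPM per kb in hESC, 7.38 ± 0.763 in low Wnt and 49.7 ± 6.96 in high Wnt. With SB4 it was 5.13 ± 0.476 in low Wnt and 12.9 ± 0.842 in high Wnt, and with TGFB 7.96 ± 1.53 and 42.1 ± 3.61. TGFB3 made up 7.16% ± 1.49 in low Wnt + SB4 and 1.63% ± 0.549 in high Wnt + SB4, and the libraries of these groups did not overlap for TGFB2 or TGFB3. If the TGFB2 bases shared with TGFB2-OT1 are taken out of its length, a calculation added after the data were seen, TGFB2 comes to 49.8% in low Wnt + SB4, where TGFB1 is then 43.8%, and to 56.0% in high Wnt + SB4. With no division by length at all, TGFB2 made up 3.26% of the ligands' counts in hESC, 38.2% in low Wnt and 45.4% in high Wnt, and 62.8% and 69.1% with SB4.

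Among the receptors the same gene held the largest share of its type in every group, while the TGFBR2 share varied. TGFBR1 made up 63.4% ± 5.87 of type I receptor CPM per kb in hESC, 79.4% ± 0.205 in low Wnt, and between 67.9% and 68.2% as means of the 3 high Wnt groups, ACVR1B being the rest. ACVR2B was the largest type II share in every group, from 66.0% ± 4.85 in hESC to 86.7% ± 0.431 in low Wnt + SB4. TGFBR2, the type II receptor for TGFB ligands, made up 17.5% ± 2.72 of type II receptor CPM per kb in hESC, 2.53% ± 0.279 in low Wnt and 10.7% ± 1.63 in high Wnt. With additives the TGFBR2 share was 3.28% to 3.50% in low Wnt and 13.3% to 14.7% in high Wnt, as group means. In low Wnt the TGFBR2 level was 0.967 CPM per kb, beside 32.6 for ACVR2B and 42.9 for TGFBR1 on the same scale.

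**Figure D4:**
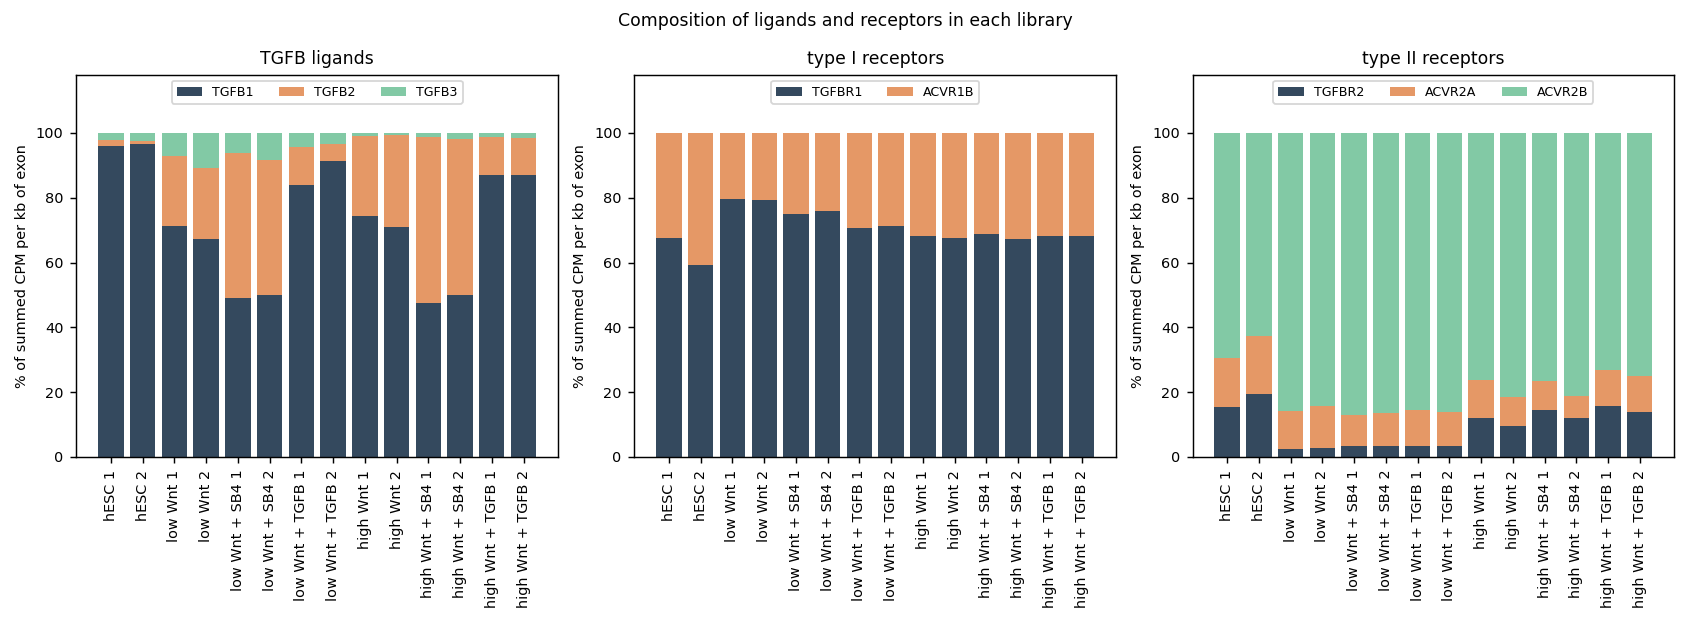
Share of each gene in the summed CPM per kb of exon (vertical axis, percent) for the TGFB ligands, type I receptors and type II receptors in each of the 14 libraries (horizontal axis, group and replicate number). TGFB2 takes 43.3% to 49.5% of the ligands as group means with SB4 and 8.45% to 11.5% with TGFB, and TGFBR2 takes 2.53% of type II receptors in low Wnt.

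For members whose group means spanned at least 2 log2 units, the genes with the most similar profile were sought by the root mean square difference of centred log2 CPM over the 7 groups, among genes tested. This measure is a description, and the points share their libraries. Nearest to TGFB1 (span 3.82) were USP2 at 0.288, BHLHE40 at 0.320 and EFNA1 at 0.358. Nearest to TGFB2 (span 6.18) were MLLT3 at 0.381, RBM20 at 0.556 and MYOF at 0.603. GDF10, with a span of 8.98, had no close match: GUCY1A3 at 0.873, PCDH8 at 0.887 and SEMA6D at 0.959 came nearest. PCDH8 resembled it in high Wnt + SB4, at a mean of 117.9 CPM beside 7.87 CPM in high Wnt, while GUCY1A3 had 20.8 and 10.1 CPM. TGFBR3 (span 4.27) was followed most closely by TIMP3 at 0.275, RFX2 at 0.284 and DNAH2 at 0.371. TIMP3 had 255.9 CPM in low Wnt, 70.8 CPM in low Wnt + TGFB and 68.4 CPM in high Wnt, where TGFBR3 had 155.4, 38.9 and 31.0 CPM. The other 6 members spanned less than 2 log2 units and were not compared.

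**Figure D5:**
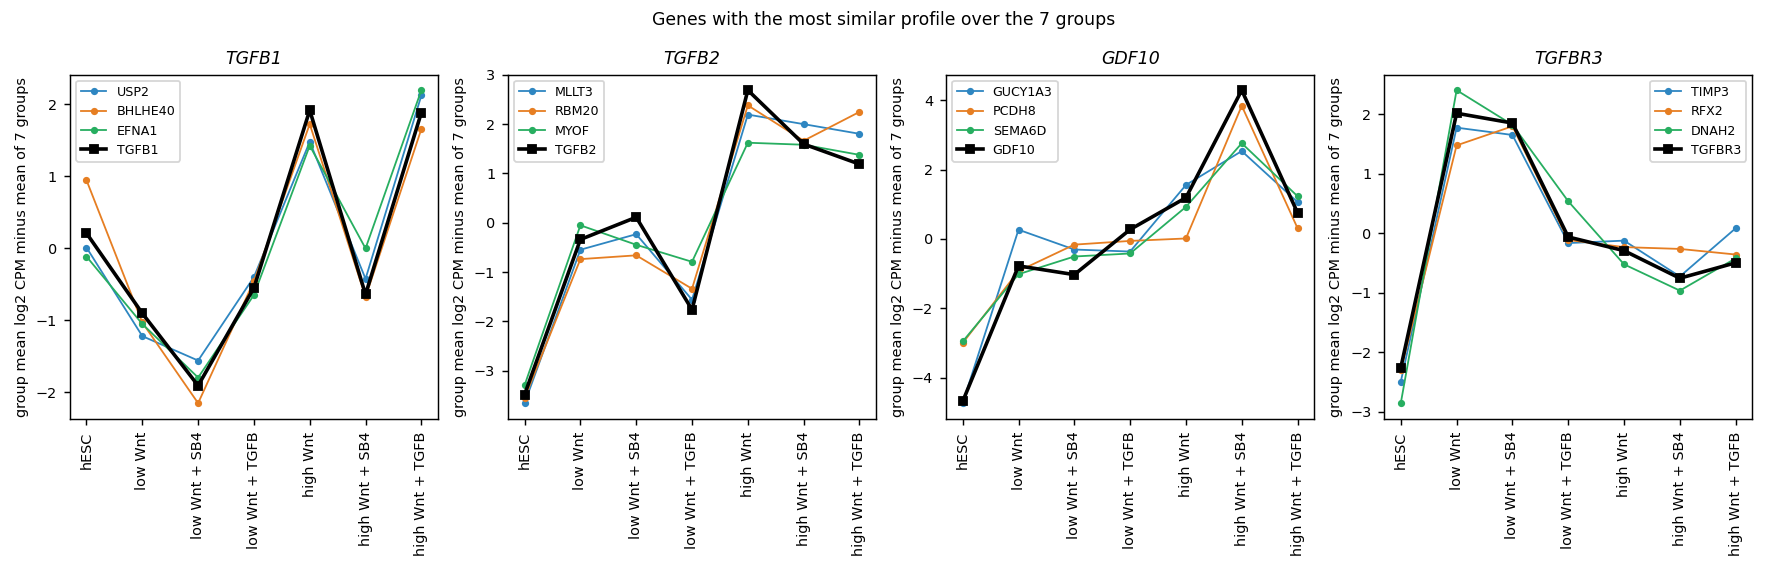
Centred log2 CPM (vertical axis, group mean minus the mean of the 7 group means) over the 7 groups (horizontal axis) for TGFB1, TGFB2, GDF10 and TGFBR3 in black and for the 3 genes nearest to each in colour. The lines for TGFBR3 and TIMP3 differ by 0.275 log2 units as a root mean square, and those for GDF10 and its nearest gene GUCY1A3 by 0.873.

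Other genes of the pathway were counted in 6 lists, to be read against the shares called over all genes: 19.4% higher and 19.1% lower between doses, 4.84% and 6.39% with SB4 in low Wnt, 9.94% and 11.6% with SB4 in high Wnt, 13.7% and 12.2% with TGFB in low Wnt, and 3.75% and 3.49% with TGFB in high Wnt. The medians over all genes ran from -0.00688 to 0.00302 in these comparisons, and the lists were not tested against other genes. Of 11 latency and activation genes, which hold and release the TGFB ligands, 10 were tested. High Wnt against low Wnt had 6 higher and 1 lower, among them THBS1, an activator of latent TGF-beta, at 2.61 (adjusted p 9.55e-05) and LTBP2, a latent binding protein, at -2.97 (adjusted p 8.76e-10). SB4 in high Wnt lowered 5 and raised none, with THBS1 at -3.30 (adjusted p 5.49e-05), and in low Wnt it raised 1 and lowered 2. TGFB in low Wnt raised 3 and lowered 2, and LTBP2 fell by 1.999 (adjusted p 1.45e-07) there, as TGFBR3 did. TGFB in high Wnt raised 1 and lowered 1, the latter being ITGB8, an integrin chain that activates latent TGF-beta, at -1.25 (adjusted p 6.66e-05). ITGB8 fell with TGFB in low Wnt too, at -1.65 (adjusted p 5.8e-07).

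Among 19 SMAD2/3 target genes, all tested, high Wnt against low Wnt had 14 higher and 3 lower, with a median of 1.18. SB4 in high Wnt lowered 15 and raised 1 (median -1.25), with TAGLN, a smooth muscle actin-binding protein, at -3.04 (adjusted p 8.31e-09). SB4 in low Wnt raised 4 and lowered 5 (median -0.44). TGFB raised 7 and lowered 6 in low Wnt (median 0.39) and raised 3 and lowered 2 in high Wnt (median 0.07). The list holds TIMP3 and BHLHE40, named above for their profiles. Of 14 SMADs and their regulators, SB4 lowered 4 in low Wnt and 5 in high Wnt and raised none, with medians of -0.11 and -0.29. TGFB raised 4 and lowered 3 in low Wnt, with PMEPA1 at 2.33 (adjusted p 3.7e-06), and raised 1 and lowered 2 in high Wnt. SMAD3 was 141.9 CPM in low Wnt and 281.2 CPM in high Wnt, and with TGFB it fell at both doses, at -0.85 (adjusted p 2.14e-05) and -0.70 (adjusted p 0.000576). With SB4 SMAD3 was 124.6 CPM in low Wnt and 124.9 CPM in high Wnt, and the SB4 effects differed by -1.03 (adjusted p 0.00043).

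Of 15 activin, nodal and GDF ligands and their inhibitors 12 were tested. TGFB raised 5 in low Wnt and 3 in high Wnt and lowered none, and SB4 lowered 2 and 4 and raised none. LEFTY2, an inhibitor of nodal, had 156 CPM in high Wnt, 1.20 CPM in high Wnt + SB4 (-7.09, adjusted p 3.84e-11) and 1099 CPM in high Wnt + TGFB (2.75, adjusted p 6.86e-08), and FST, which binds activin, rose by 2.03 with TGFB in low Wnt (adjusted p 4.86e-09). Of 11 co-receptors and pseudoreceptors 8 were tested, and TGFB raised 5 and lowered 3 in low Wnt, with TDGF1, the nodal co-receptor that is also a stem cell marker, at 3.99 (adjusted p 4.78e-10), and raised none and lowered 2 in high Wnt. SB4 raised 1 and lowered 3 in low Wnt and raised 1 and lowered 2 in high Wnt. The 7 family receptors outside the members had 1 higher and 1 lower with SB4 in low Wnt, 2 lower with SB4 in high Wnt, 3 higher and 1 lower with TGFB in low Wnt, and 1 higher with TGFB in high Wnt.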

How the data were processed

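The tools named per the submitters' processing notes are featureCounts 2.0.0, HISAT2 2.2.0, SAMtools 1.10 and bcl2fastq, with the build hg38. The authors deposited raw counts per gene for 14 libraries. Per the file headers, featureCounts counted read pairs over UCSC hg38 exons, reverse stranded, leaving out reads that overlap several genes.

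In R 4.3.3, edgeR 4.0.16 (filterByExpr by group, TMM, quasi-likelihood F-test with 1 mean per group and 7 residual degrees of freedom) gave 9 contrasts, adjusted by Benjamini-Hochberg over 16149 genes and tested on simulated data first. Pathway genes were named as up to 2 largest and 2 smallest changes among called genes with at least 10 CPM in the higher group. The 3 genes nearest to a member in profile exclude symbols with hyphens or of non-coding RNA. Older symbols (T, CTGF, HFE2) were matched through RefSeq. The TATA motif was added after the data were seen. The members and lists were chosen with earlier results of these data known. A count of 0 allows 3 counts, or 0.157 to 0.276 CPM. Library pairs differed by more than counting noise (chi-square over its degrees of freedom 5.26 to 14.1). Also run were RLE scaling, DESeq2 1.42.0, no filter, library totals, fewer groups, a log2 change of at least 1, a replicate block and leaving out each library.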

Additional observations from a re-analysis of the deposited data

Results flagged for a closer look

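The effect of an additive differed between CHIR99021 doses, by a test of the difference itself in edgeR, for 6 combinations of member and additive. For SB4, high Wnt minus low Wnt, the difference was -1.55 for TGFB1 (SE 0.271, adjusted p 0.00180), where both doses fell and high Wnt by more. It was -1.55 for TGFB2 (SE 0.240, adjusted p 0.000669), with a fall in high Wnt and no call in low Wnt, and 3.30 for GDF10 (SE 0.342, adjusted p 1.24e-05), with a rise in high Wnt. For TGFB the difference was 1.88 for TGFBR3 (SE 0.144, adjusted p 2.82e-07), with a fall in low Wnt. It was -1.55 for GDF10 (SE 0.329, adjusted p 0.00471), with a rise in low Wnt, and 1.77 for TGFB3 (SE 0.516, adjusted p 0.0339), at 14 to 43 counts per library. The TGFB3 difference was not called with DESeq2 (adjusted p 0.136) or without any of 6 single libraries (adjusted p 0.0816 to 0.147).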

How the results depend on the processing

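Of 45 calls on members over the 9 contrasts, 35 kept their direction and stayed called under every alternative other than the size threshold, 10 were lost under at least 1 of these, and none turned direction. The size threshold, a log2 fold change of at least 1, kept 33 of the 45, and 28 calls stood under it and under every other alternative. It reduced the members called from 10 to 8 for low Wnt against hESC and from 7 to 5 for high Wnt against hESC. For high Wnt against low Wnt it reduced them from 8 to 5. The reduction was from 2 to 1 for SB4 in low Wnt and from 5 to 3 for SB4 in high Wnt. For TGFB in low Wnt it was from 6 to 4. Leaving out 1 library in turn, where a lone library is assumed to vary like the other groups, gave 0 to 2 members for SB4 in low Wnt and 2 to 6 for TGFB in low Wnt. Over all genes the same step gave 784 to 2136 genes for SB4 in low Wnt (1814 with all libraries), 2342 to 4621 for TGFB in low Wnt (4196), 1944 to 3956 for SB4 in high Wnt (3476) and 538 to 1499 for TGFB in high Wnt (1170), and for the difference in TGFB effects 1253 to 2183 (1905). With a log2 fold change of at least 1 these 5 counts were 711, 1654, 962, 428 and 1064, and those for low Wnt and high Wnt against hESC, high Wnt against low Wnt and the difference in SB4 effects were 6550 (11535 at any size), 6973 (11692), 2774 (6223) and 576 (981).

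Replicate numbers were not taken to pair the libraries: deviations of same-numbered libraries correlated at -0.116 to 0.206 over 21 pairs of groups, 5 of them above 0.1. Among the high Wnt groups all 3 pairs were above 0.1, at 0.206 for no additive with SB4, 0.119 for no additive with TGFB and 0.111 for SB4 with TGFB, a hint from the data that the labels do not state. With the replicate number as a block the members called were 3 in place of 2 for SB4 in low Wnt, where TGFB2 at 0.46 passed (adjusted p 0.0367), and 4 in place of 3 for the difference in TGFB effects, where ACVR1B at -0.43 passed (adjusted p 0.0486), and no other count of members changed.

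Values that turned sign were not called in any setting, and the cause was not tested. With library totals alone, high Wnt + TGFB against high Wnt was 0.021 for TGFB1 and 0.044 for ACVR2A, and the difference in TGFB effects for TGFBR2 was -0.011 with DESeq2, -0.010 with RLE scaling, -0.014 with library totals, -0.0046 with only the groups compared and -0.0066 without the hESC libraries. Leaving out 1 library gave, for SB4 in low Wnt, -0.65 to 0.11 for GDF10 and -0.010 to 0.20 for ACVR1B, and for SB4 in high Wnt -0.0018 to 0.23 for ACVR1B. For TGFB in high Wnt it gave -0.22 to 0.17 for TGFB1 and -0.16 to 0.14 for ACVR2A. The difference in SB4 effects ran from -0.40 to 0.30 for TGFB3, -0.091 to 0.14 for ACVR1B, -0.082 to 0.078 for TGFBR2, -0.13 to 0.16 for ACVR2A and -0.13 to 0.19 for ACVR2B. The difference in TGFB effects ran from -0.43 to 0.31 for TGFB2, -0.091 to 0.070 for TGFBR2 and -0.23 to 0.020 for ACVR2B. Depth limits TGFB3, at 9 to 43 counts per library, and GDF10 in hESC.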
